A study of Mus musculus with 9 samples.

Results

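The genes described here are 10 subunits and regulators of the transcription factor NF-κB: the REL subunits Rela, Nfkb1, Nfkb2 and Relb, the kinases Chuk and Ikbkb, the inhibitors Nfkbia, Nfkbib and Tnfaip3, and the nuclear cofactor Akirin2. They were picked by gene symbol, with no measured value in the rule, but with earlier results of these data known. All 10 were found among the 27179 genes counted. Of those genes, 17344 had enough counts to be tested, and 10 of the 10 were among them.

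RNA was sequenced from tissue punches of the paraventricular nucleus (PVN), a hypothalamic nucleus that governs stress hormones, fluid balance, feeding and autonomic outflow. The 9 mice were male, wild type and C57BL/6, each gave 1 library, and each of the 3 groups held 3 mice. Control mice were kept on chow with 16% of calories from fat, and HFD mice on a high-fat diet with 60% of calories from fat. HFD+Mino mice ate the same high-fat diet and drank minocycline, a tetracycline antibiotic that enters the brain and dampens microglial activation, at 40 mg/kg/day. The diets ran for 12 weeks from 5 weeks of age (the labels list postnatal day 35), and the drug was given over the last 6 weeks. No chow group received minocycline, so the comparison of HFD+Mino with HFD is of the drug on top of the diet only, and it uses the same 3 HFD libraries as the comparison of HFD with Control. A punch also takes in tissue next to the nucleus.

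The libraries held from 17728590 counts (HFD replicate 1) to 42326213 counts (Control replicate 1). The summed level of 6 PVN neuron markers (Sim1, Otp, Avp, Oxt, Crh and Trh), in counts per 1000000 (CPM) after scaling of library sizes, spanned 27.8 to 2563 CPM in Control, 2479 to 3726 CPM in HFD and 3104 to 37730 CPM in HFD+Mino. None of the 6 was at 0 in a whole group, but Control replicate 1, at 27.8 CPM, held little of these markers. The summed level of 7 oligodendrocyte genes was 3833 to 29890 CPM in Control, 2721 to 6990 CPM in HFD and 2330 to 6043 CPM in HFD+Mino. The highest of these sums was also in Control replicate 1, where the myelin gene Mbp alone was at 18010 CPM. The part of these spreads in the results below was not tested. Ribosomal precursor RNA took 0.0272% to 0.0456% of counts in Control, 0.359% to 0.441% in HFD and 0.0466% to 0.118% in HFD+Mino, which set the HFD libraries apart from the rest.

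NF-κB is a dimer of REL-family proteins that waits in the cytoplasm, bound by inhibitors of the IκB family. The kinases IKKα and IKKβ mark the IκB proteins for destruction, the dimer enters the nucleus, and among the genes it switches on are its own brakes, IκBα and A20. In the hypothalamus the pathway is known for its activity in microglia and neurons under dietary excess. Much of this control acts on proteins and their location, and the measurements here are of mRNA.

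Among the 10 genes, 1 stood out. Akirin2, which encodes a nuclear protein that helps NF-κB engage a subset of its target genes in innate immunity and that carries proteasomes into the nucleus, fell to 0.153 of its Control level in HFD (95% interval 0.105 to 0.221) and was 6.41-fold higher in HFD+Mino than in HFD (interval 4.42 to 9.30). Nfkbia, which encodes the inhibitor IκBα, was 2.25-fold higher in HFD+Mino than in HFD (interval 1.52 to 3.33) and narrowly missed the threshold for a call. The REL subunits, the IKK kinases, Nfkbib and Tnfaip3 had no call in any comparison. A call was a false discovery rate (FDR) under 0.01, from the quasi-likelihood test of edgeR, adjusted by Benjamini-Hochberg over all tested genes, together with a change of 1.5-fold or more. In bulk tissue such as this, fewer cells of a type and less RNA per cell cannot be told apart.

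**Figure D1:**
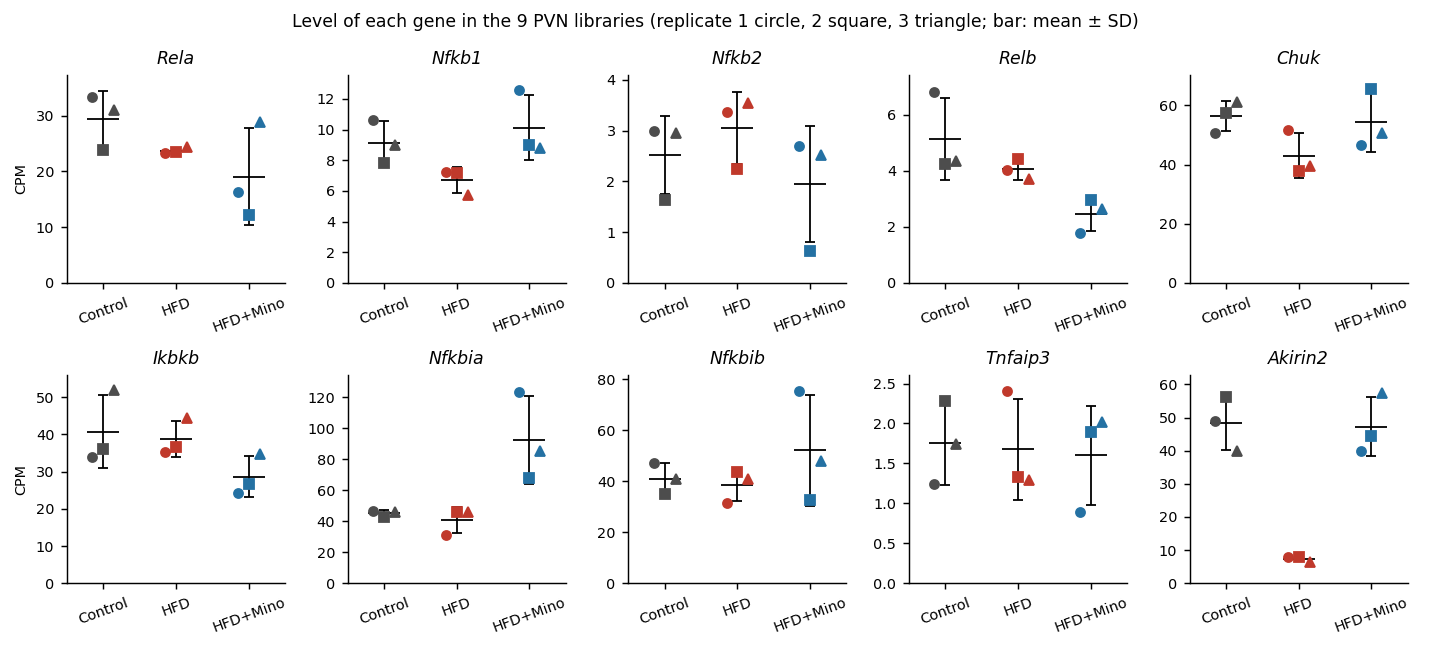
Level of each of the 10 genes in CPM (vertical axes, from 0) in the 3 Control, 3 HFD and 3 HFD+Mino libraries, with a horizontal bar at the group mean and an error bar of 1 SD. Akirin2 lies at 6.50 to 7.86 CPM in HFD and at 39.8 CPM or more in the other groups, and Nfkbia lies at 68.1 CPM or more in HFD+Mino and at 46.6 CPM or less elsewhere.

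In HFD against Control, 1 of the 10 genes was called lower and 0 higher. Of all tested genes, 1.42% were called lower and 0.317% higher in this comparison. Under minocycline, in HFD+Mino against HFD, 1 of the 10 was called higher and 0 lower, where 1.98% of all tested genes were higher and 2.16% lower. Between HFD+Mino and Control, 0 of the 10 and 0% of all tested genes were called by edgeR's quasi-likelihood test. In that comparison 3697 genes, and 2 of the 10 (Relb and Nfkbia), had an unadjusted p under 0.05, while DESeq2 called 204 genes higher and 67 lower. The quasi-likelihood test itself called 465 higher and 86 lower with a replicate block, in which Control and HFD+Mino libraries of the same number are treated as pairs, and 718 and 402 without HFD+Mino replicate 3. None of these fits called any of the 10.

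A 3-way test over all groups together asks whether a gene differed among the 3 groups. A call here also needed HFD as the highest or lowest group, 1.5-fold or more from the mean of the groups. The test does not compare HFD with each other group by itself. It placed Akirin2 among the HFD-lower genes, 1.80 below the mean on the log2 scale (FDR = 0.000649), and called no other gene of the 10. Of all tested genes, 1.21% were HFD-lower and 0.917% HFD-higher. The call rested on having all 3 HFD mice: without HFD replicate 1, 2 or 3 the FDR was 0.0125, 0.0110 and 0.0147. Over the 21 other fits the FDR ran from 1.049e-21 to 0.0147, and the distance from -1.84 to -1.49.

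Akirin2 (Entrez 433693) lies on the plus strand of chromosome 4, at chr4:34550615-34566965 in GRCm38. Its level was 49.1, 56.2 and 39.8 CPM in Control, 7.78, 7.86 and 6.50 CPM in HFD, and 39.98, 44.5 and 57.4 CPM in HFD+Mino. All 3 HFD libraries were below all 6 others, and the Control and HFD+Mino ranges lay over each other. The raw counts behind these levels were 155 to 271 in HFD and 1168 to 2100 elsewhere, so counting error was small beside the gap. The fitted log2 fold change in HFD against Control was -2.71 (SE 0.24, FDR = 0.000252), and 0.859% of tested genes had a lower one. It was 2.68 (SE 0.24, FDR = 0.000385) in HFD+Mino against HFD, and 99.4% of tested genes had a lower one. Both calls held under all 22 other ways of fitting the data, including those that left out each library in turn. HFD+Mino and Control were not distinguished, with a log2 fold change of -0.03 and an interval of -0.53 to 0.47, which covers 0.691 to 1.38 times the Control level.

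Akirin1, the paralogue of Akirin2, was measured beside it. Its level was 102, 95.7 and 92.9 CPM in Control, 103, 101 and 107 CPM in HFD, and 75.6, 107 and 98.1 CPM in HFD+Mino. The 3 groups overlapped, and the log2 fold change of 0.09 in HFD against Control had an FDR of 0.832. Within each library, the ratio of Akirin2 to Akirin1, each in CPM per kb of mRNA, was 1.049, 1.28 and 0.936 in Control, 0.166, 0.171 and 0.133 in HFD, and 1.16, 0.906 and 1.28 in HFD+Mino. This ratio does not depend on library scaling, and in it too the HFD libraries were apart from the rest.

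The Akirin2 mRNA holds a GC-rich stretch early in its coding sequence, which is shown here because many HFD-lower genes held such a stretch. It spans nucleotides 177 to 276 of transcript Akirin2-201, wholly within the coding sequence, at chr4:34551113-34551212 on the plus strand of GRCm38, and 86% of its 100 bases are G or C. Capitals mark unbroken runs of 5 or more G or C.
Akirin2-201 nucleotides 177 to 276: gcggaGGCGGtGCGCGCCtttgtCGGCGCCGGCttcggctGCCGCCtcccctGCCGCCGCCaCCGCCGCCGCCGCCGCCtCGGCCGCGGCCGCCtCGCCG
Among HFD-lower genes of the 3-way test, 166 of the 202 with a transcript sequence had a richest 100-nt stretch of 85% or more, against 1676 of 15623 tested genes. The share of tested genes called HFD-lower was 0.61% where that stretch was 80% to under 85%, 9.27% at 85% to under 90% and 13.9% at 90% to under 95%. The other 9 genes ranged from 73% (Ikbkb) to 91% (Nfkb1), and Nfkb1 was the only other one at or over 85%. With the trend of fold change on this GC value removed, the log2 fold change of Akirin2 in HFD against Control was -2.41, still called. The part of GC content in the Akirin2 result beyond that fit was not tested. The ribosomal precursor share was also apart in the HFD libraries, as given above, and in a fit without those genes and the mitochondrial genome the log2 fold change was -2.71. With the precursor at 0.441% of counts or less, that fit could not address what set the HFD libraries apart, which was not tested.

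**Figure D2:**
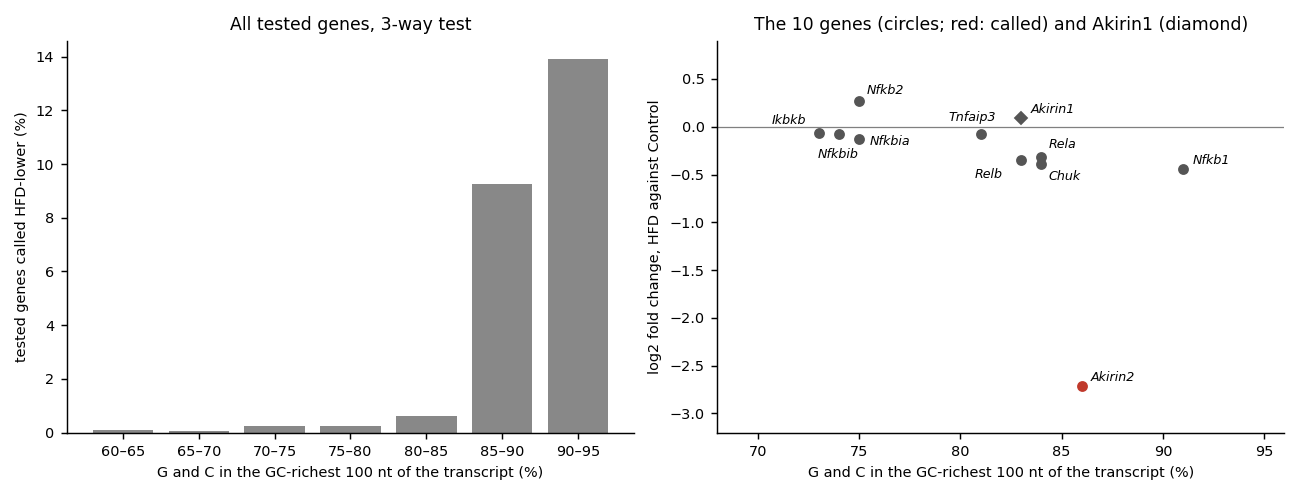
Left, the share of all tested genes called HFD-lower in the 3-way test (vertical axis, percent) by the G and C content of the richest 100 nt of the transcript (horizontal axis, percent). Right, the log2 fold change in HFD against Control of the 10 genes (circles, Akirin2 in red as the only call) and Akirin1 (diamond) against the same GC value; Akirin2, at 86%, lies at -2.71, while Nfkb1, at 91%, lies at -0.45.

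The DNA upstream of Akirin2 and of Nfkbia, the pair of genes with the largest changes, is given for comparison. Each window is the 250 bases before the annotated start, from RefSeq promoter records on GRCm38.p6, written 5′ to 3′ on the gene's strand, with matches to the kappa-B consensus on either strand in capitals. The Akirin2 window is chr4:34550365-34550614 (plus strand, 53.2% G and C) and the Nfkbia window is chr12:55492648-55492897 (minus strand, 59.2% G and C).
Akirin2 upstream: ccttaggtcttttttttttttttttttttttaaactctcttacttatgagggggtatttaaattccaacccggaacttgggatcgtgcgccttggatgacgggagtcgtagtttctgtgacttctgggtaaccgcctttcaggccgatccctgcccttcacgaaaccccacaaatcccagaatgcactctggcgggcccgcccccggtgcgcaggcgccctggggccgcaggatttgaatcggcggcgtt
Nfkbia upstream: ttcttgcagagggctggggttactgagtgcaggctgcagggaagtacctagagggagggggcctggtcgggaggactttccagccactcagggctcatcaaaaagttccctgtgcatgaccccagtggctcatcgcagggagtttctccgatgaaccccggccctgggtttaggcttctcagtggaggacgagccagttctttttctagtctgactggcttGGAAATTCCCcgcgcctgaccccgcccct
Nfkbia had 1 match, starting 29 bases before the start, and Akirin2 had none. Records matched 7 of the 10 genes, all except Nfkb1, Relb and Ikbkb. Nfkb2 held matches in each of its 3 windows, among them an overlapping pair, and Tnfaip3 held 2 in 1 of its 2 windows, while Rela, Nfkbib and Chuk held none. Over all 32851 windows of the same length, 7.25% held a match.

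The REL subunits came next in the order of roles. Rela encodes p65, the main activating subunit, and lies at chr19:5637442-5648134 on the plus strand. Its level was 33.4, 23.8 and 31.0 CPM in Control, 23.2, 23.5 and 24.3 CPM in HFD, and 16.3, 12.1 and 28.8 CPM in HFD+Mino. The groups overlapped, and HFD+Mino varied the most, with an SD of 8.70 CPM against 0.547 CPM in HFD. The log2 fold change was -0.31 in HFD against Control (FDR = 0.601), -0.31 in HFD+Mino against HFD (FDR = 0.472) and -0.62 in HFD+Mino against Control (FDR = 0.264).

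Nfkb1 encodes p105, the precursor of p50, which pairs with p65, and lies at chr3:135584655-135691969 on the minus strand. Its level was 10.6, 7.82 and 8.98 CPM in Control, 7.23, 7.19 and 5.73 CPM in HFD, and 12.6, 8.99 and 8.80 CPM in HFD+Mino. All 3 HFD libraries were below all 6 others. The size was modest: a log2 fold change of -0.45 (interval -1.06 to 0.16, FDR = 0.394) in HFD against Control and 0.59 (interval -0.02 to 1.20, FDR = 0.130) in HFD+Mino against HFD. The first of these turned to 0.34 with the GC trend removed. Non-overlap alone was common, as 35.7% of tested genes kept the HFD and Control libraries apart. That share was 46.7% for HFD+Mino against HFD and 19.1% for HFD+Mino against Control. Of the 10 genes, 2 (Nfkb1 and Akirin2), 5 (Nfkb1, Relb, Nfkbia, Ikbkb and Akirin2) and 2 (Relb and Nfkbia) did so in these comparisons.

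Relb and Nfkb2 encode the subunits of the non-canonical dimer, RelB with p52. Relb (chr7:19606217-19629438, minus strand) stood at 6.83, 4.24 and 4.36 CPM in Control, 4.02, 4.44 and 3.71 CPM in HFD, and 1.78, 2.97 and 2.62 CPM in HFD+Mino. All 3 HFD+Mino libraries were below all 6 others, and HFD overlapped Control. The level in HFD+Mino was 0.478 of Control (interval 0.278 to 0.823), a log2 fold change of -1.06 with an unadjusted p of 0.0122 and an FDR of 0.148 in edgeR's quasi-likelihood test. Against HFD it was -0.72 (interval -1.503 to 0.061, FDR = 0.149). Neither passed the threshold, and over the 22 other fits the log2 fold change against Control ran from -1.22 to -0.81 with an FDR of 0.0463 to 0.420.

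Nfkb2 (chr19:46300994-46312400, plus strand) was the less precise of the pair, resting on as few as 17 counts in 1 library. Its level was 2.98, 1.64 and 2.94 CPM in Control, 3.36, 2.23 and 3.54 CPM in HFD, and 2.70, 0.632 and 2.51 CPM in HFD+Mino. The groups overlapped, and the interval of the log2 fold change in HFD against Control, -0.90 to 1.44, left both directions open. An opposite-strand gene, AC114539.1, overlaps 531 nt of its exons, and the library kit does not mark strand, so reads from that overlap cannot be told apart by strand.

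The IKK kinases release NF-κB from its inhibitors. Ikbkb encodes IKKβ, the kinase of the canonical route, and lies at chr8:22659205-22706589 on the minus strand. Its level was 33.9, 36.2 and 51.9 CPM in Control, 35.2, 36.7 and 44.4 CPM in HFD, and 24.3, 26.8 and 34.9 CPM in HFD+Mino. HFD+Mino lay just below HFD without overlap but overlapped Control, with log2 fold changes of -0.44 (FDR = 0.201) and -0.51 (FDR = 0.257). In HFD against Control the log2 fold change was -0.07 (FDR = 0.902).

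Chuk encodes IKKα, which also drives processing of the Nfkb2 product, and lies at chr19:44073334-44107505 on the minus strand. Its level was 50.8, 57.4 and 61.1 CPM in Control, 51.7, 38.0 and 39.6 CPM in HFD, and 46.6, 65.6 and 50.7 CPM in HFD+Mino. A single HFD library, replicate 1, reached the Control range. The log2 fold change was -0.39 in HFD against Control (interval -0.87 to 0.09, FDR = 0.344) and 0.33 in HFD+Mino against HFD (FDR = 0.275). The ratio of Ikbkb to Chuk, in CPM per kb, was 0.653, 0.617 and 0.831 in Control, 0.667, 0.945 and 1.10 in HFD, and 0.511, 0.399 and 0.673 in HFD+Mino, so that HFD and HFD+Mino overlapped narrowly.

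Ikbkg, which encodes NEMO, the regulatory scaffold of the IKK complex, is not one of the 10 but completes it. Its level was 34.3, 31.6 and 45.3 CPM in Control, 58.4, 52.1 and 60.6 CPM in HFD, and 20.3, 29.6 and 32.7 CPM in HFD+Mino. All HFD libraries were above all others, with log2 fold changes of 0.62 in HFD against Control (FDR = 0.173) and -1.05 in HFD+Mino against HFD (FDR = 0.0140), neither of them called.

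The inhibitors gave the second largest change of the 10. Nfkbia, whose product IκBα holds p65 and p50 in the cytoplasm and is rapidly remade after activation, lies at chr12:55489409-55492647 on the minus strand. Its level was 46.6, 42.4 and 45.9 CPM in Control, 31.4, 45.9 and 45.7 CPM in HFD, and 123, 68.1 and 84.96 CPM in HFD+Mino. All 3 HFD+Mino libraries were above all 6 others, and HFD overlapped Control. The log2 fold change was 1.17 in HFD+Mino against HFD (interval 0.60 to 1.74, FDR = 0.0126) and 1.04 in HFD+Mino against Control (interval 0.47 to 1.60, FDR = 0.132). In HFD against Control it was -0.13 (interval -0.69 to 0.43, FDR = 0.809).

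The FDR of Nfkbia in HFD+Mino against HFD lay close to the threshold, so the call depended on how the data were fitted. With that replicate block the log2 fold change was 1.13 and the FDR 0.00246, past the threshold. The pairing in that block was drawn from these same counts, and the labels do not state it. Over all 22 other fits the FDR ran from 0.000377 to 0.308 and 8 of them called it. With the trend of fold change on exon length removed, the log2 fold change was 0.39 (FDR = 0.308). Without HFD+Mino replicate 3 it was 1.22 (FDR = 0.00637), and without HFD+Mino replicate 1, the highest library, it was 0.90 (FDR = 0.0521).

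Microglia are a main site of NF-κB signalling in the brain, and their markers are given beside this result. The summed level of 12 microglial genes was 363 to 618 CPM in Control, 466 to 495 CPM in HFD and 575 to 777 CPM in HFD+Mino. Of the 12, 10 had an unadjusted p under 0.05 in HFD+Mino against HFD, where 41.3% of all tested genes did. None of the 12 was called, and none was at 0. The summed endothelial level (7 genes) was 160 to 199 CPM in HFD and 163 to 417 CPM in HFD+Mino. Ly6c1 alone stood at 32.8, 41.2 and 46.6 CPM in HFD and at 297, 247 and 74.5 CPM in HFD+Mino. The median log2 fold change of the 7 in HFD+Mino against HFD was -0.40. Of the 7, 1 was called lower and 0 higher, beside 2.16% and 1.98% of all tested genes. Blood leukocyte markers (7 genes) summed to 9.40 CPM or less in every library. The part of these cells in the Nfkbia result was not tested.

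Nfkbib, encoding IκBβ, lies at chr7:28758251-28766644 on the minus strand, with 314 nt of exon shared with the opposite-strand gene Ccer2. Its level was 47.1, 34.9 and 40.7 CPM in Control, 31.4, 43.7 and 40.9 CPM in HFD, and 75.6, 32.8 and 47.9 CPM in HFD+Mino. The groups overlapped, since only HFD+Mino replicates 1 and 3 exceeded the other groups and replicate 2 did not. The log2 fold change was -0.08 in HFD against Control (FDR = 0.906) and 0.43 in HFD+Mino against HFD (FDR = 0.297).

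Tnfaip3 encodes A20, a ubiquitin-editing enzyme that shuts the pathway off, and lies at chr10:19000910-19015410 on the minus strand. Its level was 1.24, 2.29 and 1.74 CPM in Control, 2.41, 1.33 and 1.29 CPM in HFD, and 0.890, 1.90 and 2.02 CPM in HFD+Mino. The groups overlapped. With as few as 26 counts in a library, the interval of the log2 fold change in HFD against Control was -1.18 to 1.04, so that a change of 2-fold in either direction was not detectable at this depth.

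**Figure D3:**
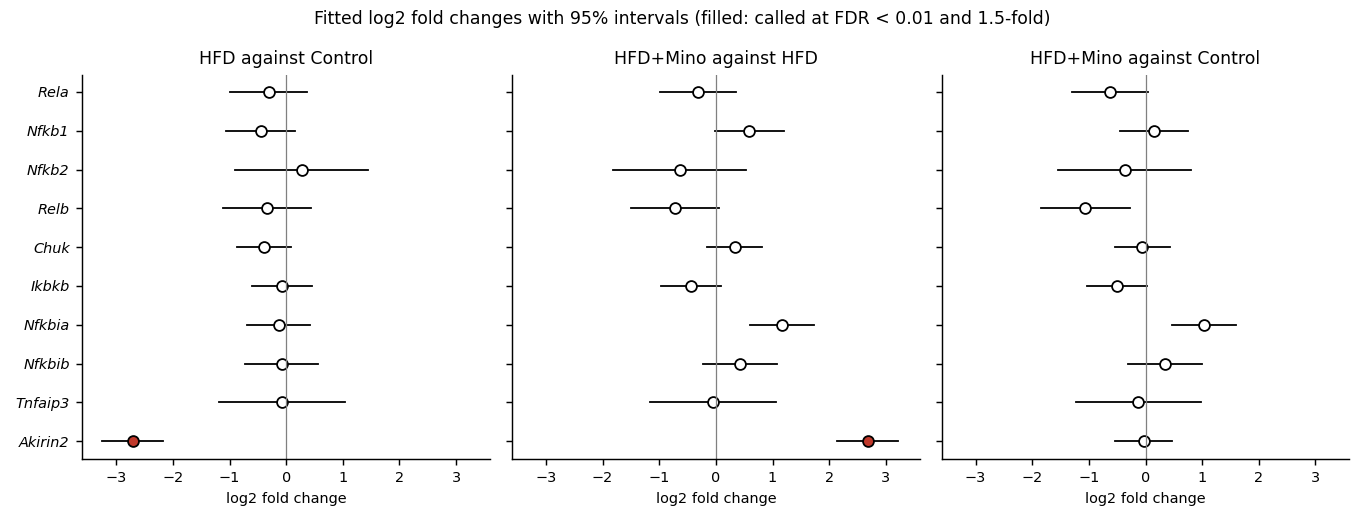
Fitted log2 fold change (horizontal axes) of each of the 10 genes in HFD against Control, HFD+Mino against HFD and HFD+Mino against Control, with lines for the 95% intervals and filled points for calls. Akirin2 is the only filled point, at -2.71 and 2.68 in the first and second panels and unfilled at -0.03 in the last, while Nfkbia lies at 1.17 and 1.04 in the second and last.

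Levels can be compared between genes only per length, here as CPM per kb of the principal mRNA. In Control the order was Akirin2 (34.6 ± 5.89 CPM per kb, SD, n = 3), Nfkbia (28.5 ± 1.41), Nfkbib (19.8 ± 2.96), Chuk (16.1 ± 1.49), Ikbkb (11.4 ± 2.74), Rela (10.8 ± 1.83), Relb (2.33 ± 0.663), Nfkb1 (2.22 ± 0.343), Nfkb2 (0.803 ± 0.244) and Tnfaip3 (0.397 ± 0.118). The ranges of neighbours overlapped for Akirin2 and Nfkbia, Nfkbib and Chuk, Ikbkb and Rela, and Relb and Nfkb1. In HFD, Akirin2 dropped to 5.28 CPM per kb, below Nfkbia, Nfkbib, Chuk, Ikbkb and Rela. In HFD+Mino it was at 33.8 CPM per kb, below Nfkbia alone, which was at 58.4.

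Ratios between partners within a library describe the balance of inhibitor and subunit mRNA. The ratio of Nfkbia to Rela, in CPM per kb, was 2.40, 3.07 and 2.54 in Control, 2.32, 3.36 and 3.24 in HFD, and 13.0, 9.68 and 5.07 in HFD+Mino. All 3 HFD+Mino ratios exceeded all 6 others. These mRNAs differ in length, at 1578 nt for Nfkbia and 2716 nt for Rela. As given above, the Nfkbia change in HFD+Mino against HFD was smaller and uncalled with the exon length trend removed. The part of length in this ratio was not tested. The ratio of Nfkbib to Rela was 1.86, 1.93 and 1.73 in Control, 1.78, 2.45 and 2.22 in HFD, and 6.11, 3.57 and 2.19 in HFD+Mino, where replicate 3 fell within the HFD range. The ratio of Nfkb1 to Rela was 0.191 to 0.217 in Control, 0.156 to 0.205 in HFD, and 0.510, 0.490 and 0.201 in HFD+Mino, so that replicate 3 again lay with the other groups. The ratio of Nfkb2 to Relb spread from 0.149 to 1.07 within HFD+Mino alone and separated no groups.

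**Figure D4:**
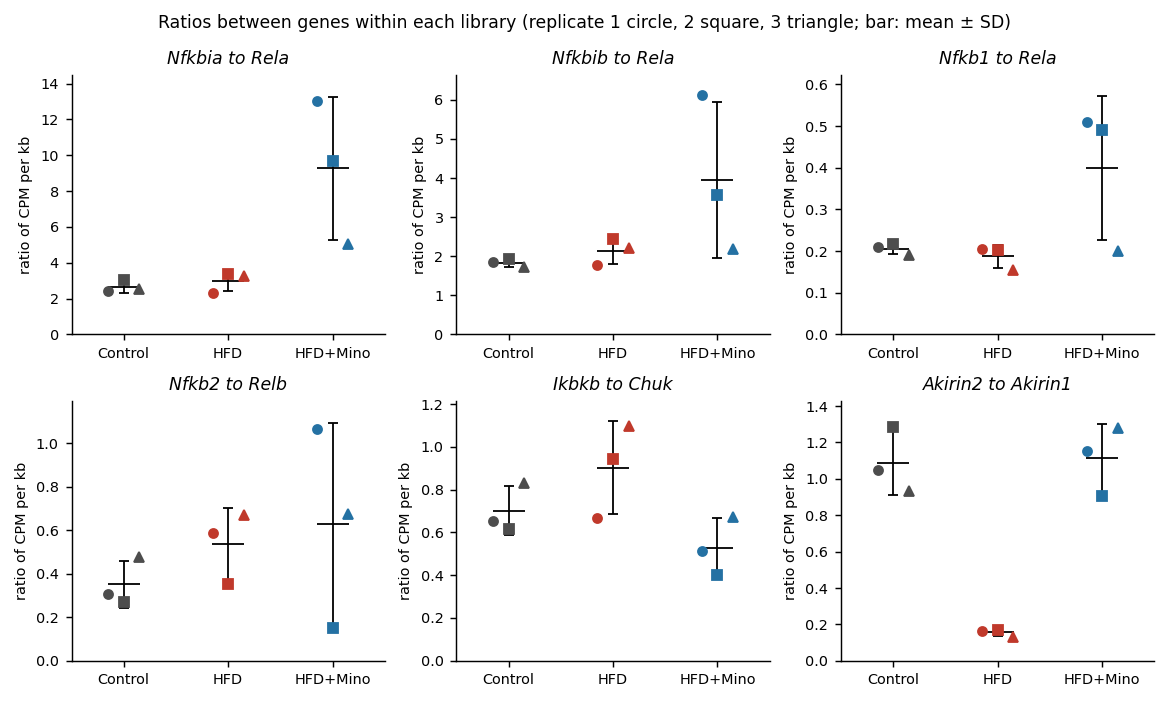
Ratios of CPM per kb between named genes within each of the 9 libraries (vertical axes, from 0), with bars at the group mean and error bars of 1 SD. Nfkbia to Rela is 5.07 to 13.0 in HFD+Mino against 2.32 to 3.36 elsewhere, and Akirin2 to Akirin1 is 0.133 to 0.171 in HFD against 0.906 to 1.28 elsewhere.

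Taking the 10 genes as a list, the median log2 fold change was -0.22 in HFD against Control, 0.14 in HFD+Mino against HFD and -0.09 in HFD+Mino against Control, beside 0.004, 0.009 and -0.02 over all tested genes. In HFD against Control 9 of the 10 fitted values lay below 0, and 1 of the 9 was called. The signs of Nfkb1, Nfkbia, Nfkbib, Tnfaip3 and Ikbkb reversed in 2, 3, 4, 3 and 1 of the 22 other fits, in that order. By role and in the order of these comparisons, the medians were -0.33, -0.47 and -0.50 for the REL subunits, -0.23, -0.05 and -0.28 for the kinases, and -0.08, 0.43 and 0.35 for the inhibitors.

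A wider list of 68 pathway genes, of which 67 were tested, covered receptors, adaptors and upstream kinases, IKK-related proteins, other REL and IκB proteins, ubiquitin editors and nuclear cofactors. In HFD against Control 3 of the 67 were called lower and 0 higher, beside 1.42% and 0.317% of all tested genes. For HFD+Mino against HFD 2 were higher and 3 lower, beside 1.98% and 2.16%. The 3-way test called 2 of the 67 HFD-lower (Otulin and Rnf11) and 2 HFD-higher (Cyld and Itch), beside 1.21% and 0.917% of all tested genes. All 4 were among the ubiquitin editors, of which 11 were tested. Without HFD replicate 1, 2 or 3, HFD-higher calls over all genes fell to 0, 1 and 0, so Cyld and Itch did not both keep theirs in any of these fits. The list's median log2 fold change was 0.10 in HFD against Control and -0.41 in HFD+Mino against HFD.

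Otulin, which removes linear ubiquitin chains and so restrains NF-κB signalling, fell from 29.6, 32.8 and 26.9 CPM in Control to 1.21, 2.20 and 1.34 CPM in HFD and stood at 29.3, 19.0 and 36.1 CPM in HFD+Mino. The log2 fold changes were -4.22 (FDR = 0.000158) and 4.14 (FDR = 0.000208), and both calls held under all 22 other fits. Like Akirin2, all 3 pathway genes called lower in HFD had a richest 100-nt stretch above 85% G and C, at 87% in Otulin, 86% in Rnf11 and 90% in Map3k7. Rnf11, a partner of A20 in its ubiquitin-editing complex, fell from 368, 407 and 338 CPM in Control to 38.5, 59.8 and 56.9 CPM in HFD, and stood at 194, 271 and 337 CPM in HFD+Mino. Its log2 fold changes were -2.84 (FDR = 0.000307) and 2.37 (FDR = 0.000947), the second missing the threshold without HFD replicate 3 (FDR = 0.0111).

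Cyld and Itch encode further brakes, a deubiquitinase of lysine-63 chains and a ubiquitin ligase that works with A20. Cyld was at 52.7, 61.8 and 85.1 CPM in Control, 158, 142 and 133 CPM in HFD, and 62.9, 59.7 and 66.5 CPM in HFD+Mino. Itch was at 45.2, 33.4 and 43.0 CPM in Control, 50.8, 61.0 and 65.2 CPM in HFD, and 22.2, 24.4 and 22.1 CPM in HFD+Mino. For both genes all HFD libraries were above all others. The log2 fold changes in HFD+Mino against HFD were -1.19 for Cyld (FDR = 0.00800) and -1.37 for Itch (FDR = 0.00419). In HFD against Control they were 1.12 for Cyld (FDR = 0.0143) and 0.54 for Itch (FDR = 0.169), neither of them called.

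Map3k7, encoding TAK1, the kinase that activates IKKβ, was at 27.2, 26.7 and 28.4 CPM in Control, 8.68, 9.37 and 11.1 CPM in HFD, and 20.9, 14.4 and 27.8 CPM in HFD+Mino, with a log2 fold change of -1.496 in HFD against Control (FDR = 0.00960). Kpna3, encoding an importin that carries NF-κB into the nucleus, was at 57.4, 83.4 and 83.6 CPM in Control, 137, 130 and 146 CPM in HFD, and 36.4, 59.6 and 62.9 CPM in HFD+Mino, with a log2 fold change of -1.38 in HFD+Mino against HFD (FDR = 0.00800). The calls of Map3k7, Cyld, Itch and Kpna3 were less stable than that of Akirin2. Each was lost without any 1 of the HFD replicates, with FDR values of 0.0425 to 0.0663, 0.0364 to 0.0402, 0.0172 to 0.0335 and 0.0330 to 0.0463 in that order. Each was also lost without Control replicate 2 or HFD+Mino replicate 1, at FDR values of 0.01003 to 0.05004. Map3k7 was lost as well without Control replicate 1 (FDR = 0.0243) or 3 (FDR = 0.0199), and Cyld (FDR = 0.0199) and Kpna3 (FDR = 0.0158) without HFD+Mino replicate 2. With the GC trend removed, Map3k7 stood at -0.81 in HFD against Control (FDR = 0.0593) and Kpna3 at -1.04 in HFD+Mino against HFD (FDR = 0.0129). With the exon length trend removed, Cyld stood at -0.57 (FDR = 0.0466), Itch at -0.79 (FDR = 0.0221) and Kpna3 at -1.18 (FDR = 0.0103) in HFD+Mino against HFD, so that each of the 4 calls was lost with a trend removed.

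With the replicate block in Control and HFD+Mino, Map3k7 was also called in HFD+Mino against HFD (FDR = 0.00434), and Cyld (FDR = 0.00248) and Kpna3 (FDR = 0.00366) in HFD against Control. A block over all samples gave none of these calls (FDR = 0.0150, 0.0204 and 0.0408) and lost that of Map3k7 in HFD against Control (FDR = 0.0107). With the block in Control and HFD+Mino and the length trend removed, Cyld was called neither in HFD against Control (FDR = 0.0196) nor in HFD+Mino against HFD (FDR = 0.0190), and with that block and the GC trend removed, Map3k7 was not called in HFD against Control (FDR = 0.0244).

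**Figure D5:**
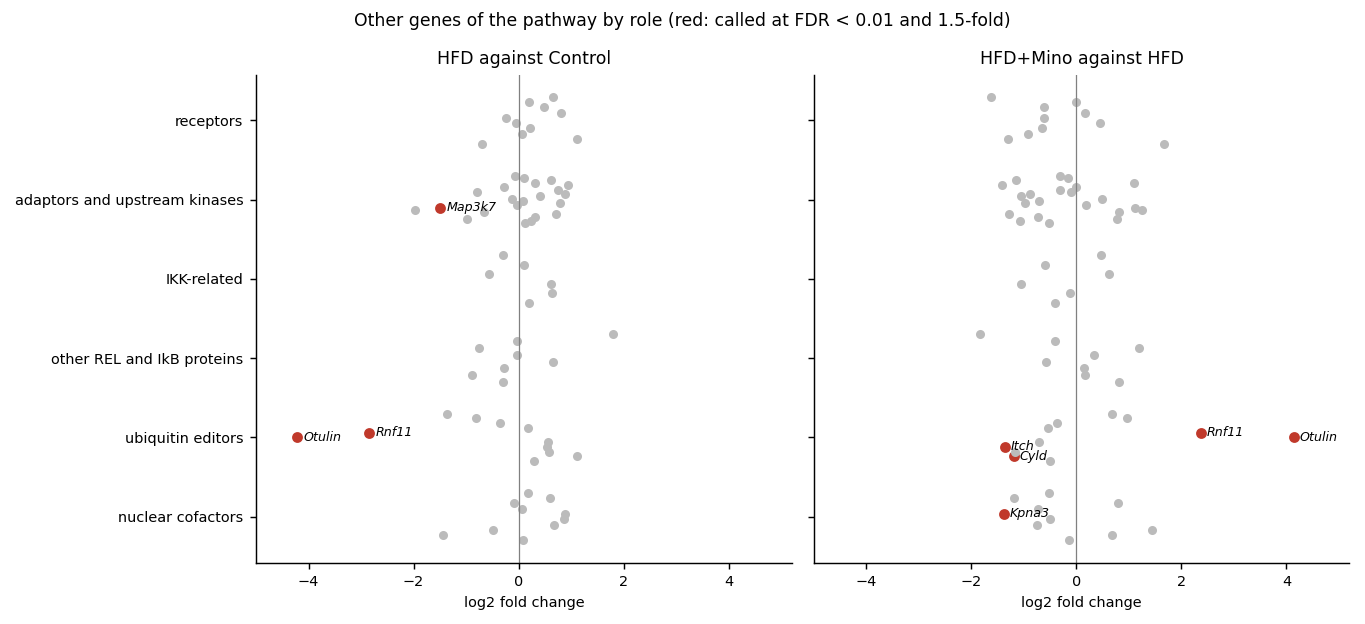
Log2 fold change (horizontal axes) of the 67 tested pathway genes by role (rows) in HFD against Control, left, and HFD+Mino against HFD, right, with calls in red and named. Otulin and Rnf11 lie at -4.22 and -2.84 on the left and at 4.14 and 2.37 on the right, and the uncalled genes lie on both sides of 0.

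Rel, the remaining REL subunit, was scarce, at 0.447, 0.282 and 0.383 CPM in Control, 1.66, 0.754 and 1.52 CPM in HFD, and 0.205, 0.706 and 0.191 CPM in HFD+Mino. All HFD libraries were above all others, but on 6 to 61 counts a library the log2 fold change of 1.81 in HFD against Control had an SE of 0.72 and an FDR of 0.186.

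Among 26 transcriptional targets of NF-κB, 19 were tested and 0 were called by edgeR's quasi-likelihood test in any comparison. Of the 19, unadjusted p values under 0.05 numbered 0 in HFD against Control, 2 in HFD+Mino against HFD and 2 in HFD+Mino against Control, where 20.5%, 41.3% and 21.3% of all tested genes had one. Their median log2 fold changes were -0.19, 0.38 and -0.07. The classical cytokine targets were barely present: Il6 had 0 to 28 counts a library, Tnf 0 to 7 and Il1b 0 to 7, and Tnf and Il1b were too low to test. Il6 gave a log2 fold change of -0.67 in HFD against Control with an SE of 1.91 (FDR = 0.878), so that a change in these cytokines was not detectable at this depth.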

How the data were processed

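RNA from 9 PVN punches was sequenced from SMARTer Ultra Low Input cDNA and Nextera XT libraries. Per the submitters' processing notes, reads were aligned with HISAT2 to mm10 (GRCm38) and assigned to genes with featureCounts; the strand setting is not given in the sources used here. The authors deposited raw gene counts, with no normalization. Of 27179 genes, 958 had no symbol, and 2154 had no count in any library.

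Counts were scaled by TMM, filtered by filterByExpr and tested with edgeR 4.0.16 (quasi-likelihood, R 4.3.3) over all 9 samples; the script was tested on simulated data. P-values were adjusted by Benjamini-Hochberg over 17344 genes. The alternatives were DESeq2 1.42.0, the likelihood ratio test, RLE size factors, other filters, removal of ribosomal precursor and mitochondrial genes, a replicate block, removal of trends (span 0.3) on exon length or GC content, the 6 samples of each pair, other thresholds, and each library left out. Per-kb levels used the principal mRNA of GENCODE, and sequences came from RefSeq and GENCODE on GRCm38.

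The sample titles number replicates 1 to 3 in each group, with no stated link between them, and the numbers used here follow the titles. The count columns number the Control and HFD+Mino libraries from 1 as well, but the HFD libraries from 3 upward. Same-numbered Control and HFD+Mino libraries deviated together (correlations 0.135, 0.163 and 0.292), whereas Control and HFD (-0.133, -0.109 and -0.00624) and HFD and HFD+Mino (-0.152, -0.125 and -0.0522) did not, so the pairing comes from the counts alone. Differently numbered Control and HFD+Mino libraries ran from -0.162 to 0.0255. Control replicate 2 and HFD replicate 1, which differ in number, reached 0.167, above the 0.135 and 0.163 of the paired libraries. No libraries of a group agreed within sampling noise (chi-square per degree of freedom of 22.0 or more).

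All 10 genes were named; of the wider pathway and target lists, those called in any comparison were named, and Akirin1, Ikbkg, Rel, Tnf, Il1b and Il6 always. The 10 genes and the lists were chosen with earlier results of these data known.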

Additional observations from a re-analysis of the deposited data

How the results depend on the processing

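The count of the 10 genes called was 1 in HFD against Control (Akirin2) and 0 in HFD+Mino against Control under every alternative. For HFD+Mino against HFD it was 1, but 2 with DESeq2, the likelihood ratio test, a minimum mean count of 50, no filter on low counts, the GC trend removed, an FDR under 0.05, the replicate block in Control and HFD+Mino, and that block with either trend removed. The added gene was Nfkbia, except that with the replicate block and the length trend removed it was Nfkb1 (log2 fold change 1.19, FDR = 0.00530). The replicate block changed no other call among the 10. Leaving out each library gave 1 to 2 calls in HFD+Mino against HFD and 0 to 1 in the 3-way test, the 0 without any 1 HFD library. Over all genes, 210 HFD-lower and 159 HFD-higher calls became 937 and 1346 with the block and 1221 and 1121 with DESeq2, and without HFD replicate 1, 2 or 3 they became 10 and 0, 13 and 1, and 3 and 0. The cause was not tested.

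Several uncalled log2 fold changes changed sign. In HFD against Control, Nfkb1 became 0.34 with the GC trend removed and 0.36 with the block as well; with the length trend removed, alone and with the block, Nfkbia became 0.082 and 0.093 and Nfkbib 0.12 and 0.126. In HFD+Mino against HFD, under the same pair of fits, Nfkbib became -0.09 and -0.14, Ikbkb 0.21 and 0.19, and Tnfaip3 0.39 and 0.34, the last also 0.27 and 0.20 with the GC trend removed. In HFD+Mino against Control, Nfkbib became -0.015 with the block and the length trend removed. Tnfaip3 became 0.082 (length), 0.033 (GC) and 0.061 (block and length), and Chuk 0.19, 0.18, 0.17 and 0.15 (length, GC, and each with the block). Akirin2 became 0.19 with the GC trend removed and 0.21 with the block as well. Leaving out each library, the ranges in HFD against Control were -0.23 to 0.028 for Nfkbia, -0.18 to 0.05 for Nfkbib, -0.41 to 0.17 for Tnfaip3 and -0.19 to 0.14 for Ikbkb. The range in HFD+Mino against HFD was -0.26 to 0.28 for Tnfaip3. In HFD+Mino against Control it was -0.042 to 0.27 for Nfkb1, -0.67 to 0.048 for Nfkb2, -0.02 to 0.59 for Nfkbib, -0.34 to 0.16 for Tnfaip3, -0.22 to 0.041 for Chuk and -0.20 to 0.085 for Akirin2.

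With 3 mice a group, the intervals of Nfkb2 and Tnfaip3, on as few as 17 and 26 counts in a library, were the widest of the 10 in each comparison. No chow group received minocycline, so the drug without the high-fat diet was not measured.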
